A study of Rattus norvegicus with 48 samples.

Results

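Apoe (ENSRNOG00000018454), Clu (ENSRNOG00000016460) and Cst3 (ENSRNOG00000005195) were followed in rat motor cortex around an implanted silicon electrode. They were taken by their Ensembl IDs and are 3 of 18997 distinct IDs, and all 3 have a row in both count tables and passed the low-count filter in every comparison. RNA was sequenced from tissue that a laser had cut out of 20 µm brain sections (laser capture microdissection). All animals were wild-type Sprague-Dawley rats, and those implanted were males of 12 to 14 weeks. Near tissue lay within 100 µm of a single-shank 16-channel probe in M1, and far tissue, pooled from 4 smaller areas, lay about 500 µm away. Near and far tissue came from 3 rats at 24 h (rats 25, 29 and 30), 5 rats at 1 week (rats 9, 10, 20, 22 and 23) and 4 rats at 6 weeks (rats 2, 11, 17 and 19), as 6 near and 6 far libraries at each time. Tissue at the matching 100 µm and 500 µm positions came from 3 naive rats without an implant (n2, n3 and n5), as 6 libraries per position. The captured tissue holds all cell types of the region, so a change in the number of cells that make a transcript and a change in transcript per cell cannot be told apart.

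The 3 genes encode proteins that glia secrete. Apoe is apolipoprotein E, the main lipid carrier of brain lipoproteins, made mostly by astrocytes and also by activated microglia. Clu is clusterin, or apolipoprotein J, an extracellular chaperone that binds misfolded proteins and lipids and is abundant in astrocytes. Cst3 is cystatin C, an inhibitor of cysteine proteases such as the cathepsins, expressed by microglia and astrocytes. Astrocytes and microglia become reactive around a device placed in the brain. The files name genes by ID alone, so the tissue label was not checked against cell type markers and other glial genes were not analysed here.

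In RefSeq's rat assembly GRCr8 Apoe lies on chromosome 1 (88481889 to 88485816), Clu on chromosome 15 (44336619 to 44375861) and Cst3 on chromosome 3 (156790061 to 156794116). The counts were made on an older build, Rnor_6.0, so these positions were not used for any value. Clu overlaps Scara3 and the pseudogene Ppp2r1a-ps1 there, and Cst3 has a pseudogene, Cst3-ps1. How the authors' counting treated reads shared with these was not tested, and values of Clu and Cst3 are uncertain to that extent. RefSeq's table holds 3 windows for Apoe, at different start sites, and 1 for Cst3, and which Apoe start was used in this tissue was not measured. The window around 1 of these start sites of Apoe, the gene whose near level stood apart from its far level, is shown with that of Cst3, which showed no such call. Both run from 250 bases before to 50 bases after the start, 5′ to 3′ on the minus strand, from RefSeq's GRCr8 table. Capitals mark, on either strand, the core of a TATA box (TATAA), of the GC box bound by Sp1-type factors (GGGCGG) and of a CCAAT box (by its letters).
Apoe, chr1:88484650-88484949: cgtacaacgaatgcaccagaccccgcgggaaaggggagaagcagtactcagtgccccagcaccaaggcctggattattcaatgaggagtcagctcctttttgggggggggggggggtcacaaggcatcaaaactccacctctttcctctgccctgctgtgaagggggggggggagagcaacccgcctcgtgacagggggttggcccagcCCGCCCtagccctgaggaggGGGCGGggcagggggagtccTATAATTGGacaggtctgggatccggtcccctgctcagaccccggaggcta
Cst3, chr3:156793888-156794187: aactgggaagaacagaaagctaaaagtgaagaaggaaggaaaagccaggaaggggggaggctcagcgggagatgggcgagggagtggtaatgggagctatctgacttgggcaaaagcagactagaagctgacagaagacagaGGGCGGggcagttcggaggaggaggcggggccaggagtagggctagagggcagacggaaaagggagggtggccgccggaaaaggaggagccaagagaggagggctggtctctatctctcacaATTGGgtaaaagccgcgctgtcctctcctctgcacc
The Apoe window holds 1 TATA core, 2 GC boxes and 1 CCAAT box, with the TATA and CCAAT matches overlapping, and that TATA core starts 1 base before the annotated start site. The overlapping Apoe window at chr1:88484471-88484770 holds the same numbers of matches, with the TATA core starting 180 bases before its start site, and the window at chr1:88485767-88486066 holds 0 of each. The Cst3 window holds 0 TATA cores, 1 GC box and 1 CCAAT box. Among 33469 windows of the same length, 26.2% hold a TATA core, 33.1% a GC box and 37.5% a CCAAT box. These matches describe the letters, and binding at them was not measured.

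The libraries held 3363892 to 12844185 counts each and 3062 to 16023 genes with at least 1 count. Libraries with fewer than 6000 genes numbered 4 (near tissue of rat 29, right hemisphere, at 24 h, near tissue of rat 20, left, and rat 23, right, at 1 week, and far tissue of rat 23, left, at 1 week), and log2 fold changes that moved by over 1.5 times without them are given both ways. Apoe had 3901 to 33547 counts per library, so counting error was small beside the spread between rats. Clu had 0 to 13866 and Cst3 0 to 5591 counts, with 1 library at 0 for each, both among the 4 libraries with few genes. Levels are given as CPM, a count scaled to a common library total, after summing a rat's libraries per distance and scaling by TMM, and the rat is the replicate. Transcript lengths were not used, so levels are compared between samples and not between genes.

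Apoe was higher in near than in far tissue in 11 of 12 implanted rats by TMM-scaled CPM. Rat 29 is among them only through that scaling, since Apoe held 0.057% of its near and 0.070% of its far counts. Scaled by library, its near and far Apoe was 745 and 622 CPM in the left hemisphere, and 792 and 935 in the right. The near mean was 1494 CPM ± 820 (SD, n = 3) at 24 h, 2135 ± 1057 (n = 5) at 1 week and 2115 ± 737 (n = 4) at 6 weeks. The far means were 996 CPM ± 139, 1298 ± 618 and 968 ± 115. Its edgeR log2 fold change of near against far was called at 1 week and 6 weeks, and in the mean of the 3 times it was 0.73 ± 0.10, or 1.66-fold.

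At 24 h near Apoe was 2440 CPM in rat 25, 990 in rat 29 and 1052 in rat 30, and far Apoe was 1035, 841 and 1112 CPM in the same rats. Rat 25 alone stood well above its far tissue, rat 30 was slightly lower near than far, and the groups overlapped. The log2 fold change was 0.45 ± 0.19 (95% interval 0.08 to 0.82, adjusted p = 1, edgeR quasi-likelihood test), without rat 25 it was 0.07, and without the library of rat 29 with few genes it was 0.26. At this time 0 of 3 members were called by edgeR and 0 by DESeq2, with 1 of 3 (Apoe) at an unadjusted p below 0.05. Of the 14399 genes tested edgeR called 0.132%, with 442 at an unadjusted p below 0.05, and DESeq2 called 532 genes. Each ± printed after a fold change on the log2 scale is an approximate standard error based on a spread shared with genes of like abundance. It does not show how far the rats themselves differed, and their log2 differences here averaged 0.46 ± 0.69 (SD, n = 3).

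At 1 week near Apoe was 1585 CPM in rat 9, 1611 in rat 10, 965 in rat 20, 3274 in rat 22 and 3240 in rat 23. Far Apoe was 745, 1172, 883, 1377 and 2311 CPM in these rats. Near was higher in 5 of 5 rats, from 1.09-fold in rat 20 to 2.38-fold in rat 22, while the groups overlapped because rats differed at both distances. The log2 fold change was 0.69 ± 0.15 (95% interval 0.40 to 0.98, adjusted p = 0.00168, edgeR), whereas the median over all genes was -0.66. Apoe was the 1 member called of 3, against 0.396% of all genes tested. This call was lost without the 4 libraries with few genes (0.75, adjusted p = 0.0885), without rat 9 (0.0606), rat 10 (0.105), rat 22 (0.538) or rat 11 of the 6-week group (0.0754), and in the fit of the 1-week rats alone (0.0734).

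At 6 weeks near Apoe was 2126 CPM in rat 2, 1482 in rat 11, 3145 in rat 17 and 1708 in rat 19, and far Apoe was 953, 907, 1134 and 877 CPM. The lowest near value lay above the highest far value, and the difference ran from 1.63-fold in rat 11 to 2.77-fold in rat 17. Near exceeded far by 1.06 ± 0.16 on the log2 scale, or 2.08-fold (95% interval 0.74 to 1.38, adjusted p = 7.50e-07, edgeR), with a median of -0.05 over all genes. It lay between 0.92 and 1.18 with an adjusted p of at most 0.00923 whichever rat was left out. In the fit of the 6-week rats alone it was 1.08 with an adjusted p of 0.0834. Apoe was the 1 member called of 3, against 0.0764% of all genes.

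Over the 12 implanted rats the log2 difference of Apoe averaged 0.76 ± 0.51 (SD), for which an exact permutation of signs over rats, two-sided, gave p = 0.000977. The smallest p this test can give is 0.000488 with 12 rats, and 0.25, 0.0625 and 0.125 with the rats of a single time, where it gave 0.5, 0.0625 and 0.125. Taken implant by implant, near was higher in 16 of 18, and in 13 of the 14 whose libraries both had 6000 genes or more. Apoe was called in the mean of the 3 times (adjusted p = 1.40e-10, edgeR), with 1 of 3 members called against 1.51% of all genes. Without the libraries with few genes the value was 0.69 (adjusted p = 6.56e-06). In naive rats Apoe was 1144, 1148 and 940 CPM at 100 µm and 1250, 1016 and 1193 at 500 µm in n2, n3 and n5. The naive positions overlapped, and their log2 difference was -0.14 ± 0.18 (adjusted p = 1.00, edgeR). Subtracting it from the implanted difference gave 0.84 over the 3 times, with an adjusted p of 0.479.

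**Figure D1:**
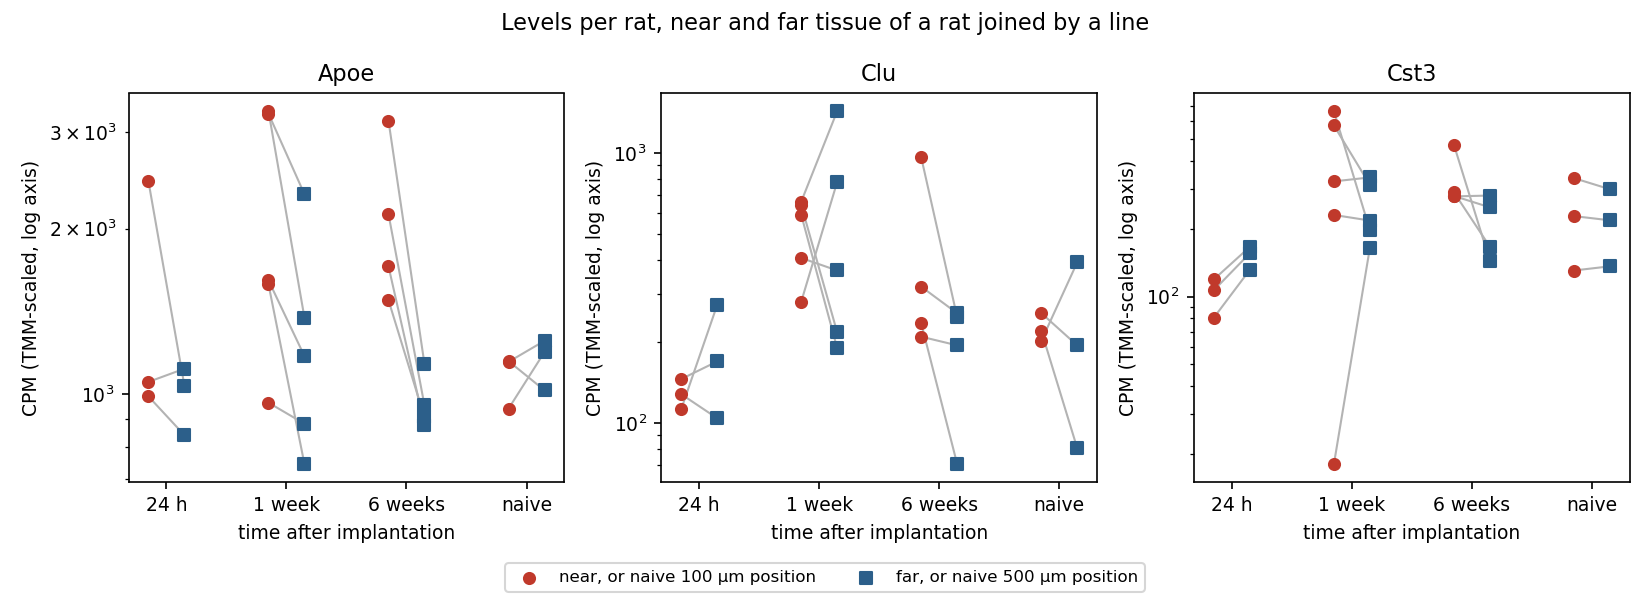
Levels of Apoe, Clu and Cst3 in CPM on a log axis, 1 point per rat and distance, with near (circles) and far (squares) tissue of a rat joined by a line. Near Apoe at 6 weeks runs from 1482 to 3145 CPM above far values of 877 to 1134 CPM, while lines of Clu and Cst3 run in both directions at 1 week. The low near Cst3 value of rat 20 at 1 week comes from a library with few genes.

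Clu showed no called difference between near and far tissue, and its values differed widely between rats. At 24 h near Clu was 112 CPM in rat 25, 128 in rat 29 and 146 in rat 30, and far Clu was 274, 104 and 169 CPM. At 1 week near Clu was 591, 409, 643, 281 and 659 CPM in rats 9, 10, 20, 22 and 23. Far Clu was 189, 367, 217, 781 and 1428 CPM in these rats. Rats 9 and 20 were about 3-fold higher near, and rats 22 and 23 were lower near, at 0.36 and 0.462 of the far level. At 6 weeks near Clu was 209, 234, 964 and 320 CPM in rats 2, 11, 17 and 19, and far Clu was 194, 70.5, 246 and 255 CPM. All 4 were higher near, by 1.08-fold in rat 2 up to 3.91-fold in rat 17, and the groups overlapped.

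The log2 fold change of Clu, near against far, was -0.41 ± 0.37 at 24 h, 0.17 ± 0.31 at 1 week and 1.02 ± 0.33 at 6 weeks. The adjusted p was 1, 0.970 and 0.578 (edgeR), and the 6-week value had an unadjusted p of 0.00229 and a 95% interval of 0.38 to 1.65. The rats' own log2 differences at 6 weeks averaged 1.03 ± 0.95 (SD, n = 4). For these the exact permutation of signs gave p = 0.125, which is the lowest possible with 4 rats. Near Clu was higher in 1 of 3, 3 of 5 and 4 of 4 rats. The mean log2 difference over 12 rats was 0.31 ± 1.22 (SD), with an exact two-sided permutation p of 0.406. Without the libraries with few genes the 24 h value was -0.25 and the 1-week value turned to -0.39.

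Cst3 also showed no called difference, and its direction differed between times. At 24 h near Cst3 was 107, 80.7 and 119 CPM in rats 25, 29 and 30, and far Cst3 was 156, 132 and 166 CPM. The sums were lower near in 3 of 3 rats and the groups did not overlap, but by implant near Cst3 was lower in 4 of 6. It was higher in the left implants of rat 29 (116 against 105 CPM) and rat 30 (128 against 104), scaled by library. The lower sum of rat 29 rests on its right near library, one of the 4 with few genes, which had 71 Cst3 counts (9.08 CPM). At 1 week near Cst3 was 666, 576, 18.0, 325 and 230 CPM in rats 9, 10, 20, 22 and 23, and far Cst3 was 197, 313, 165, 338 and 218 CPM. The near value of rat 20 is its only near library, which had 90 Cst3 counts and is one of the 4 with few genes. The sums of rat 23 join a left implant with 2500 near and 0 far Cst3 counts and a right implant with 133 and 2986. Its left far and right near libraries are also among the 4 with few genes. Leaving them out of a fit sets its left near library against its right far library. By implant at 1 week, near Cst3 was higher in 4 of 6, and in 3 of 3 without libraries with few genes. At 6 weeks near Cst3 was 472, 280, 291 and 279 CPM in rats 2, 11, 17 and 19, and far Cst3 was 144, 249, 166 and 281 CPM. Rat 2 was 3.28-fold higher near, and rat 19 was level.

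The log2 fold change of Cst3, near against far, was -0.59 ± 0.38 at 24 h, 0.04 ± 0.33 at 1 week and 0.64 ± 0.34 at 6 weeks (adjusted p = 1 at each time, edgeR). Without the libraries with few genes the Cst3 values were -0.46 at 24 h, 0.58 at 1 week and 0.66 at 6 weeks, and without rat 20 the 1-week value was 0.66 (adjusted p = 1 for each). The 24 h interval ran from -1.34 to 0.16 and the 6-week interval from -0.02 to 1.31. At 24 h the exact permutation of signs gave p = 0.25, which is the lowest possible with 3 rats. Over the 12 rats near Cst3 was higher in 6 and lower in 6 (exact p = 0.943). In naive rats Clu was 256, 201 and 220 CPM at 100 µm and 194, 394 and 80.8 at 500 µm, and Cst3 was 228, 336 and 131 at 100 µm and 218, 300 and 136 at 500 µm, in n2, n3 and n5. In these sums Cst3 differed more between naive rats than between the positions of a rat. By library the positions of n3 differed in opposite directions. Cst3 was 326 CPM at 100 µm and 150 at 500 µm in its right hemisphere, and 296 and 396 in its left. Between naive positions 0 of 3 members were called by edgeR and 0 by DESeq2, with 0 at an unadjusted p below 0.05. Of all 11839 genes edgeR called 0% (600 genes at an unadjusted p below 0.05), and DESeq2 called 1357.

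**Figure D2:**
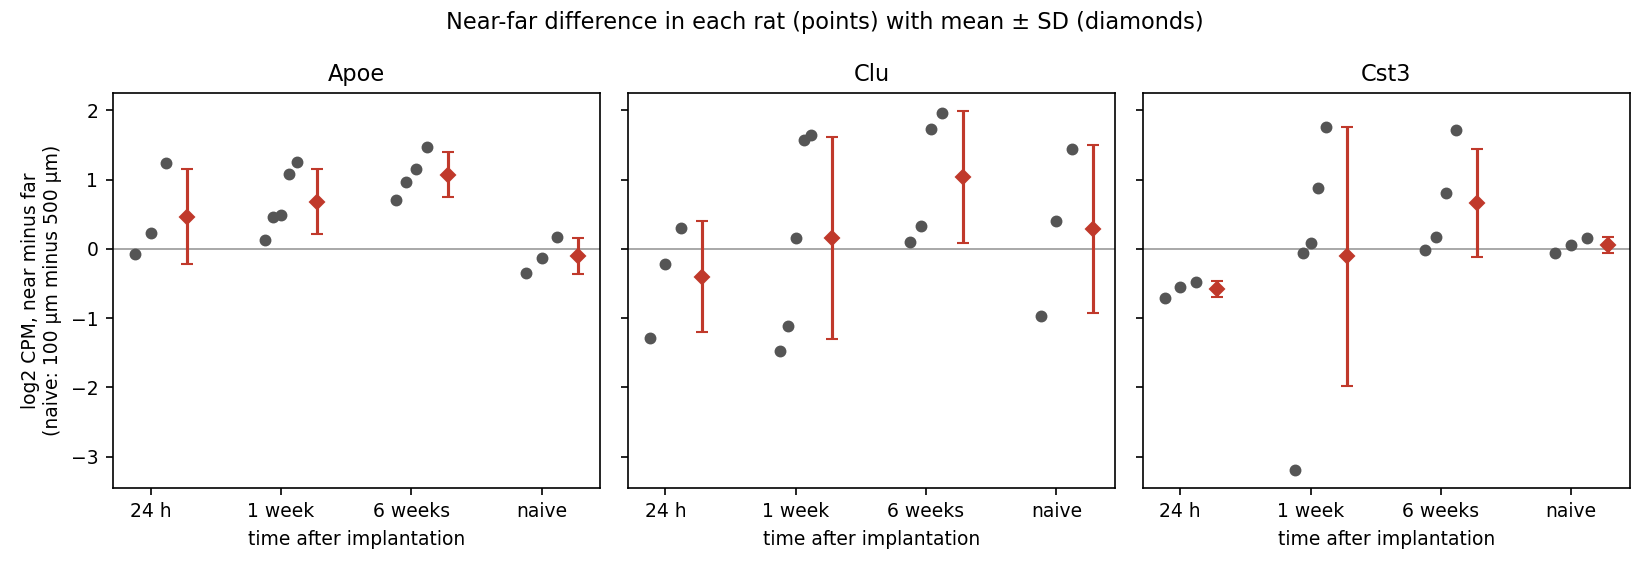
The log2 CPM difference of near minus far in each rat (points) for each gene and time, with the mean ± SD beside them (diamonds), and for naive rats the 100 µm minus the 500 µm position. Apoe lies above 0 in 11 of 12 implanted rats, in rat 29 (0.23) only through the TMM scaling. The summed Cst3 values lie below 0 in 3 of 3 rats at 24 h, for rat 29 through a library with few genes. By implant at 24 h, Cst3 was lower near in 4 of 6. The 1-week values of Clu and Cst3 spread on both sides of 0. Cst3 lies below 0 there in rat 22 (-0.06) and in rat 20 (-3.19), the latter through a library with few genes.

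Whether the near-far difference itself moved with time was tested within the same fit. From 24 h to 6 weeks it increased by 0.61 ± 0.25 for Apoe, 1.42 ± 0.49 for Clu and 1.23 ± 0.51 for Cst3 on the log2 scale. Each had an unadjusted p below 0.05 (0.0147, 0.00447 and 0.0160), and none passed adjustment (adjusted p = 1, edgeR), so 0 of 3 members were called, by DESeq2 also 0. Of all 14399 genes edgeR called 0.0208%, with 180 at an unadjusted p below 0.05, and DESeq2 called 254 genes. From 24 h to 1 week the changes were 0.24 ± 0.24, 0.58 ± 0.48 and 0.63 ± 0.50, and from 1 week to 6 weeks 0.37 ± 0.22, 0.85 ± 0.44 and 0.60 ± 0.47, for Apoe, Clu and Cst3. Without the libraries with few genes they were 0.49, -0.14 and 1.04 for the first step and 0.33, 1.43 and 0.08 for the second. None of the 6 values from all libraries had an unadjusted p below 0.05, and edgeR and DESeq2 called 0 members in both. The share of all genes called by edgeR was 0% from 24 h to 1 week (258 genes at an unadjusted p below 0.05, 418 called by DESeq2) and 0.0278% from 1 week to 6 weeks (405 called by DESeq2). The 1-week near-far difference being called for Apoe and not the 24 h one is therefore no test that they differ. These 3 contrasts share groups with one another.

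In near tissue Clu rose between 24 h and 1 week. Its 3 rats at 24 h, at 112 to 146 CPM, lay below all 5 rats at 1 week, at 281 to 659 CPM. It rose by a log2 fold change of 1.98 ± 0.41, or 3.96-fold (95% interval 1.19 to 2.79, adjusted p = 0.0103, edgeR), and Clu was the 1 member called of 3, against 0.0469% of the 12799 genes tested. The call was lost without the libraries with few genes (1.61, adjusted p = 0.364), without rat 10 (0.106), rat 20 (0.143) or rat 23 (0.0582), and when libraries were not summed per rat (2.27, adjusted p = 1.00). Among the 24 h libraries behind the low near value, rat 25 had 32 Clu counts in the left hemisphere and 1806 in the right, and rat 29 had 1560 in the left and 0 in the right.

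Near Clu at 6 weeks, at 209 to 964 CPM, lay above its 24 h range, with a log2 fold change of 1.72 ± 0.41 that was not called (adjusted p = 0.0757, edgeR). Without rat 17 this value was 0.95. At this step 0 of 3 members were called by edgeR and 1, Clu, by DESeq2 (adjusted p = 0.0267), with 1 at an unadjusted p below 0.05. Over all genes edgeR called 0.0234%, with 538 at an unadjusted p below 0.05. DESeq2, which made the Clu call, called 262 of 12799 genes. From 1 week to 6 weeks the log2 fold changes in near tissue were -0.04 ± 0.44 for Apoe, -0.27 ± 0.35 for Clu and -0.15 ± 0.69 for Cst3. Without the libraries with few genes they were -0.13, -0.07 and -0.53. None of the 3 was called by either tool or had an unadjusted p below 0.05, while edgeR called 0.00781% of all genes and DESeq2 160 genes.

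Near Cst3 was 80.7 to 119 CPM at 24 h and 18.0 to 666 CPM at 1 week, a log2 difference of 1.81 ± 0.81 (adjusted p = 0.878, edgeR). Without the libraries with few genes, which removes the near value of rat 20, it was 2.09 with an adjusted p of 0.00881. At 6 weeks near Cst3, at 279 to 472 CPM, lay above all 24 h values (1.66 ± 0.83, adjusted p = 1). Near Apoe overlapped between all times, with log2 fold changes of 0.49 ± 0.48 from 24 h to 1 week and 0.46 ± 0.50 from 24 h to 6 weeks (adjusted p = 1 for each, edgeR).

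Far tissue gave no call between times. Far Clu had the widest values at 1 week, 189 to 1428 CPM, against 104 to 274 at 24 h and 70.5 to 255 at 6 weeks. Its log2 fold change was 1.71 ± 0.77 from 24 h to 1 week and -1.64 ± 0.69 from 1 week to 6 weeks (adjusted p = 1 and 0.925, edgeR). Far Cst3 changed by 0.69 ± 0.29 from 24 h to 1 week, and far Apoe by 0.37 ± 0.28 and then -0.42 ± 0.25. In each of the 3 steps edgeR and DESeq2 called 0 of 3 members, with 1 at an unadjusted p below 0.05 from 24 h to 1 week (Cst3), 1 from 1 week to 6 weeks (Clu) and 0 from 24 h to 6 weeks. Over all 12995 genes edgeR called 0% in each step, with 546, 661 and 533 genes at an unadjusted p below 0.05, and DESeq2 called 196, 129 and 219.

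Naive libraries carry another series of library numbers than the implanted ones, so a batch and the implant cannot be told apart in what follows. Near Apoe at 6 weeks, at 1482 to 3145 CPM, lay above all naive 100 µm values of 940 to 1148 CPM. The difference was 0.98 ± 0.46 on the log2 scale (adjusted p = 1, edgeR). At 1 week it was 1.00 ± 0.45 (adjusted p = 0.525), with rat 20 inside the naive range, and at 24 h 0.50 ± 0.48 (adjusted p = 1). Without rat 25 the 24 h value was -0.034, and the 1-week value was then called (1.04, adjusted p = 0.0116).

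Near Clu was below the naive range of 201 to 256 CPM in 3 of 3 rats at 24 h and above it in 5 of 5 rats at 1 week. By library, near Clu at 24 h ran from 0 to 220 CPM and naive 100 µm Clu from 85.4 to 412 CPM, which overlap. The 24 h sum of rat 29 joins a left library at 198 CPM with a right library at 0, one of those with few genes, and leaving that one out gave -0.64 for the 24 h difference that follows. The log2 fold changes were -0.80 ± 0.41 (adjusted p = 0.811, edgeR) and 1.21 ± 0.38 (adjusted p = 0.324), and at 6 weeks 0.94 ± 0.39 (adjusted p = 1). Near Cst3 sums at 24 h lay below the naive sums of 131 to 336 CPM (-1.16 ± 0.83, adjusted p = 1). By library near Cst3 at 24 h ran from 9.08 to 148 CPM and naive 100 µm Cst3 from 119 to 326 CPM, which overlap. The value of 9.08 is that of rat 29's right library, one of those with few genes. At 1 week and 6 weeks the Cst3 differences were 0.66 ± 0.75 and 0.53 ± 0.77, the first being 1.03 without the libraries with few genes. Over the 3 times edgeR called 0 members in each comparison with naive 100 µm tissue, with 0, 2 and 1 members at an unadjusted p below 0.05, and DESeq2 called 0, 2 (Apoe and Clu) and 0. The shares of all 13834 genes called by edgeR were 0.0578%, 0.123% and 0.0434%, and DESeq2, which made those 2 calls at 1 week, called 400, 308 and 183 genes. DESeq2's size factors within edgeR raised the median log2 fold change of all genes by 0.18, 0.28 and 0.16 in these comparisons, and by 0.19 in near against far at 1 week.

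In the comparison of far tissue with the naive 500 µm position, Apoe levels overlapped at each time. The log2 fold changes of Apoe were -0.25 ± 0.28, 0.12 ± 0.25 and -0.29 ± 0.26 at 24 h, 1 week and 6 weeks, and the intervals together ran from -0.81 to 0.62. For Clu they were -0.33 ± 0.82, 1.38 ± 0.78 and -0.26 ± 0.77, and for Cst3 -0.56 ± 0.33, 0.13 ± 0.30 and -0.09 ± 0.31, the last 2 being 0.35 and -0.04 without the libraries with few genes. In each of the 3 comparisons 0 of 3 members were called by edgeR and by DESeq2, with 0 at an unadjusted p below 0.05. The shares of all 13369 genes called by edgeR were 0.00748%, 0.127% and 0.0598%, and DESeq2 called 680, 777 and 659 genes.

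The left and right hemispheres of a rat at one distance gave 18 pairs of libraries and show how far a level is repeatable within an animal. The higher of the pair exceeded the lower by a median of 1.31-fold for Apoe, with 3 of 18 pairs over 2-fold and a maximum of 2.59-fold. For Clu, in the 17 pairs without a 0, the median was 1.94-fold, with 8 pairs over 2-fold and a maximum of 45.5-fold in near tissue of rat 25. For Cst3, also in the 17 pairs without a 0, the median was 1.49-fold and the maximum 15.3-fold, and without the libraries with few genes 1.34-fold and 2.64-fold. The Cst3 pair with a 0 was far tissue of rat 23, at 0 and 2986 counts, the 0 being in a library with few genes.

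**Figure D3:**
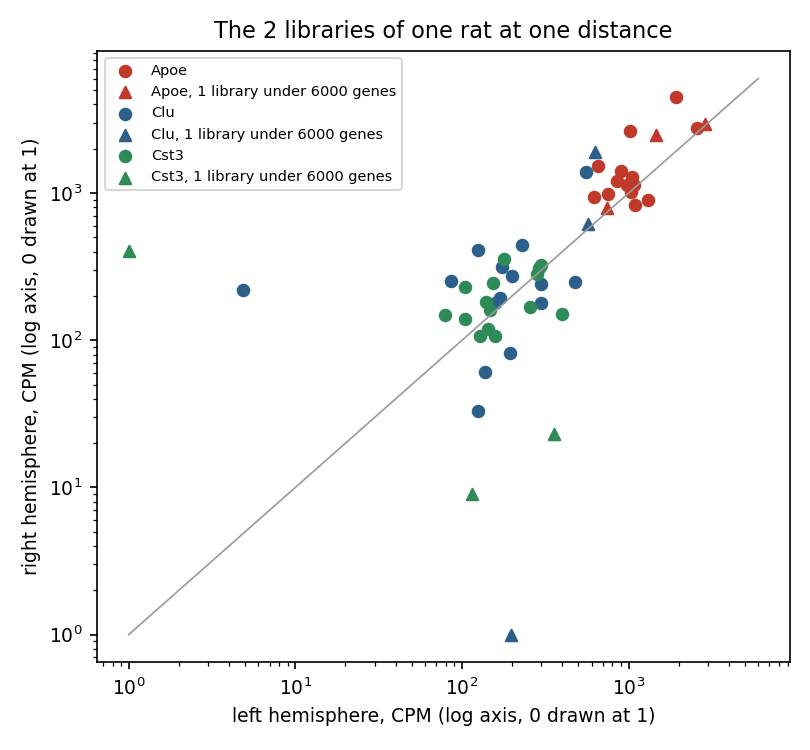
Left against right hemisphere level in CPM, both axes log, for the 18 pairs of libraries of a rat at one distance, with triangles where a library of the pair had fewer than 6000 genes and values of 0 drawn at 1. Apoe points stay within 2.59-fold of the diagonal, and the farthest Cst3 points and the Clu point at 0 belong to libraries with few genes, whereas the Clu point at 45.5-fold does not.

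The ratio of 2 members within a sample does not depend on scaling between libraries. The Apoe to Cst3 count ratio was higher near than far in 9 of 12 implanted rats, by a median of 1.52-fold, and in 3 of 3 at 24 h. The Apoe to Clu ratio was higher near in 7 of 12 rats with a median of 1.17-fold, and the Clu to Cst3 ratio in 6 of 12 with a median of 1.06-fold. Ratios with Cst3 rest in part on libraries with few genes. The highest Apoe to Cst3 near-over-far value, 9.98-fold at 1 week, was that of rat 20, whose near library had 90 Cst3 counts. Sums of rat 29 include a near library with 71 Cst3 counts. Those of rat 23 include a near library with 133 and a far library with 0. These ratios were not tested.

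Across the 24 near and far values of the implanted rats, the log2 CPM of Apoe and Clu had a Pearson r of 0.49, Apoe and Cst3 0.37, and Clu and Cst3 0.18, as a description over values that share rats, times and distances. Of 3015 genes averaging log2 CPM 5 or more, the pattern of ENSRNOG00000018322 (r = 0.79) and ENSRNOG00000016488 (0.75) was most like Apoe, that of ENSRNOG00000016043 (0.82) and ENSRNOG00000000805 (0.73) most like Clu, and that of ENSRNOG00000012929 (0.83) and ENSRNOG00000019961 (0.80) most like Cst3. The 3 members were thus not among each other's 2 closest genes. Among the genes most like Apoe, Clu ranked 83 and Cst3 190, and among those most like Clu, Cst3 ranked 399. The median r over these genes was -0.04 for Apoe, -0.08 for Clu and 0.08 for Cst3. The Cst3 values include that of near tissue of rat 20 (18.0 CPM), from a library with few genes.

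The direction of Apoe near against far was the same in every alternative computed. Its log2 fold change at 1 week ran from 0.54 to 0.92 and at 6 weeks from 0.92 to 1.18. Without the block by rat the adjusted p was 0.449 at 1 week, 0.754 at 6 weeks and 0.127 over the 3 times. The 2 most abundant genes held 11.52% to 43.48% of a library's counts, and leaving them out gave 0.68 (adjusted p = 0.00270) and 1.10 (3.40e-07) at 1 week and 6 weeks.

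**Figure D4:**
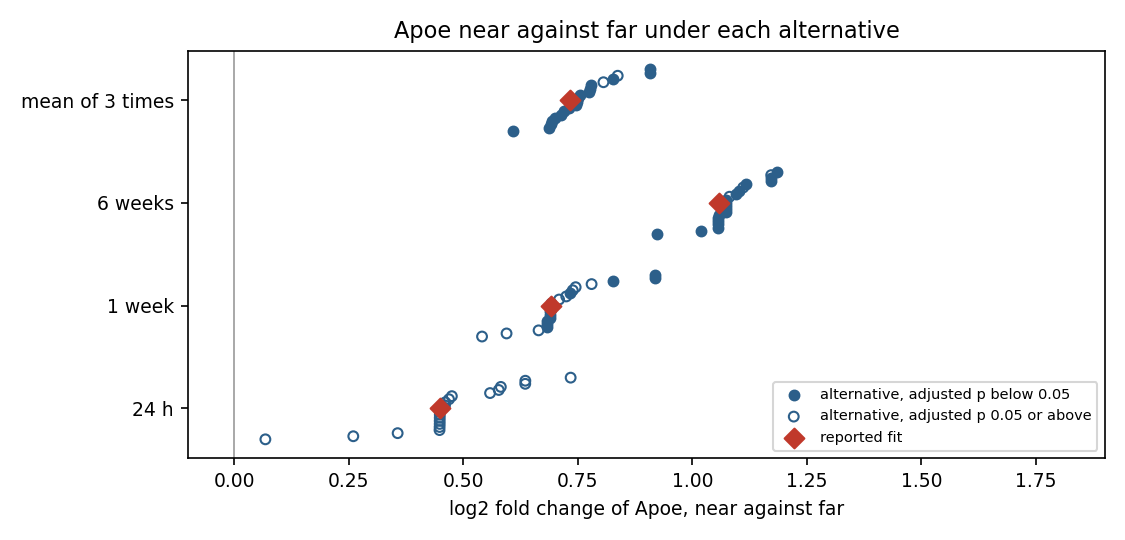
The log2 fold change of Apoe near against far at each time and over the 3 times, as reported (diamonds) and under each alternative (circles, filled where the adjusted p is below 0.05). All circles lie above 0, those at 6 weeks between 0.92 and 1.18, and those at 24 h are all open.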

How the data were processed

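Counts of reads per gene were deposited by the authors in 2 tables, for 36 implanted libraries (17317 genes) and 12 naive libraries (17616 genes). RNA came from paraformaldehyde-fixed cryosections and a stranded kit, per the labels' protocols. Per the submitters' processing notes, the build was Rnor_6.0 and the tools included STAR 2.6.1b and RSEM 1.3.1, with cutadapt 2.3, FastQC 0.11.8 and DESeq2 also listed. The whole-number counts were used as deposited, and no source used here says whether estimated counts were rounded.

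The members and lists were chosen with earlier results of these data known. The files give Ensembl IDs alone, and 0 of 18997 matched a symbol in the reference, so gene lists and cell type markers were not analysed here. The naming rule covered the 3 members in every comparison and, by ID, the 2 genes whose log2 CPM (prior count 2) correlated best with each.

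Counts were summed per rat and distance. The robust quasi-likelihood test of edgeR 4.0.16 (R 4.3.3) was run after filterByExpr and TMM, with Benjamini-Hochberg adjustment over all genes of a comparison, called at an adjusted p below 0.05. The ± of a log2 fold change is its value over the root of the F statistic, and its 95% interval is 1.96 times that on each side. Near against far was fitted over the 3 times together and blocked by rat, because both come from the same animal. A rat's near and far deviations from their group means correlated above 0.1 across genes in 5 of 12 rats. Times were compared within near and within far tissue, and each was compared with naive tissue over the 15936 genes in both tables. Printed CPM have one TMM scaling over all rat sums. Alternatives were DESeq2 1.42.0 (size factors, Wald test), no low-count filter, the 2 most abundant genes left out, libraries under 6000 genes left out, no block, unsummed libraries, the compared groups alone, subtraction of the naive positions' difference, and each rat left out. The fits were also run on simulated counts. These had no effect of the rat, and the changes put in were larger than the near-far differences of Apoe. The simulation therefore does not bear on the calls reported here.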

Additional observations from a re-analysis of the deposited data

Results flagged for a closer look

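In 2 of the 12 groups of 4 or 5 rats, 1 rat stood far from the others by Dixon's criterion, applied to CPM. Chance meets it in about 1 in 20 groups where values are normally distributed, which was not checked for CPM. Whether the same rats stand apart on the log2 scale was not tested. Clu in near tissue at 6 weeks was 963.87 CPM in rat 17, whose gap to the next rat was 0.853 of the group's range against a critical value of 0.829. Cst3 in near tissue at 6 weeks was 472.34 CPM in rat 2 (0.938 against 0.829). Different rats stood apart for the 2 genes, and near Apoe at 6 weeks had no such rat. Without rat 17 the near-far log2 fold change of Clu at 6 weeks was 0.69, and without rat 2 that of Cst3 was 0.29 (edgeR).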

How the results depend on the processing

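For near against far at 1 week the count of members called went from 1 to 0 without the libraries with few genes, without the replicate block, with libraries not summed per rat, with only the rats of that time and with the naive positions' difference subtracted, and ran from 0 to 1 when each rat was left out. At 6 weeks it went from 1 to 0 without the replicate block, with only the rats of that time and with the naive difference subtracted, and over the 3 times to 0 without the block and with the naive difference subtracted. In near tissue from 24 h to 1 week it went to 0 with unsummed libraries (0 to 1 with a rat left out), and it stayed at 1 without the libraries with few genes, where Cst3 was called and Clu was not. From 24 h to 6 weeks it was 1 with the DESeq2 Wald test and with no low-count filter (0 to 1 with a rat left out). For near tissue at 1 week against naive tissue it was 1 with DESeq2 size factors, 2 with the DESeq2 Wald test and 1 with unsummed libraries (0 to 1 with a rat left out). Fits without the block ignore that near and far tissue share an animal, and the fits of a single time hold fewer rats. Whether these or other features of the alternatives made the counts change was not tested.

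Directions turned only where a value was not called. For Clu near against far at 1 week the log2 fold change was -0.39 without the libraries with few genes, -0.20 without the replicate block, -0.079 with unsummed libraries and -0.14 with the naive difference subtracted (-0.23 to 0.59 with a rat left out), and at 24 h it was -0.75 to 0.030 with a rat left out. For Cst3 at 1 week it was -0.045 with unsummed libraries and -0.020 with the naive difference subtracted (-0.42 to 0.66 with a rat left out), and over the 3 times -0.063 and -0.015 (-0.12 to 0.24), where Clu was -0.032 with the naive difference subtracted. The change of the near-far difference from 24 h to 1 week was -0.14 for Clu without the libraries with few genes and -0.044 to 0.62 for Apoe with a rat left out, and from 1 week to 6 weeks -0.021 to 1.07 for Cst3. Near Apoe from 1 week to 6 weeks was 0.014 with no low-count filter (-0.29 to 0.19 with a rat left out), and near Cst3 -0.41 to 0.17. Far Apoe from 24 h to 6 weeks was 0.00088 with DESeq2 size factors and with the Wald test and 0.045 with unsummed libraries (-0.14 to 0.045 with a rat left out), and far Clu -0.20 to 0.47. Against naive tissue, leaving out a rat gave -0.034 to 0.70 for near Apoe at 24 h, -0.73 to 0.36 for far Clu at 24 h, -0.11 to 0.42 for far Cst3 and -0.15 to 0.27 for far Apoe at 1 week, and -0.34 to 0.20 for far Cst3 and -0.66 to 0.43 for far Clu at 6 weeks, where far Cst3 was 0.032 with unsummed libraries. Between naive positions Cst3 was -0.062 with DESeq2 size factors, -0.061 with the Wald test, -0.0018 with no low-count filter and -0.012 without the 2 most abundant genes (-0.053 to 0.069 with a rat left out), and Clu was -0.016 without the replicate block (-0.33 to 0.88 with a rat left out).

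Over all genes, near against far calls moved most with the tool. They were 19 at 24 h, 57 at 1 week, 11 at 6 weeks and 217 over the 3 times, against 532, 1306, 331 and 1184 with the DESeq2 Wald test and 0 to 43, 1 to 79, 0 to 41 and 13 to 242 under the other alternatives. The 1-week near-far 95% intervals on the log2 scale were -0.43 to 0.77 for Clu and -0.61 to 0.69 for Cst3. They allow differences in either direction and rest on a spread shared with genes of like abundance. The rats' own log2 differences at 1 week had an SD of 1.46 for Clu and 1.87 for Cst3 (n = 5).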
